A study of Homo sapiens with 24 samples.

Results

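SG21, a line of HGC27 cells labelled as a knockout of TMEM97, was compared with the parental HGC27 cells, both after growth in medium with LPDS. The comparison takes the 3 SG21 samples and the 3 parental samples labelled LPDS, 6 of the 24 samples of the series, and the members were chosen by these labels alone. HGC27 is an established human gastric carcinoma cell line. Cells were grown for 3 days in high-glucose DMEM, and 100 ng of total RNA per sample was depleted of ribosomal RNA and sequenced with strand kept. LPDS usually stands for lipoprotein-deficient serum and FBS for fetal bovine serum, and the labels give only the abbreviations. The parental cells carry no guide, so SG21 differs from them both in the TMEM97 guide and in having been made into a line. Whether SG21 is 1 clone or a pool, and where its guide cuts, is not given in the sources used here. Values of 3 other sets of samples stand beside the comparison where they bear on it. These are SG21 and parental cells in FBS, the line SGCTRL with a control guide (wild type per the labels) in LPDS, and SG12, the other line labelled as a TMEM97 knockout, in LPDS.

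TMEM97 encodes the sigma-2 receptor, a membrane protein of the endoplasmic reticulum and the endolysosome that binds NPC1, the transporter that moves cholesterol out of lysosomes. Serum without lipoproteins takes away the cells' outside source of cholesterol. Cells then release the transcription factor SREBP2 from the endoplasmic reticulum, and it turns on the genes of cholesterol synthesis and lipoprotein uptake. The TMEM97 gene itself is known to be raised when sterols are scarce.

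Between 2.5 and 4.08 M reads were counted to genes in each of the 6 samples, 5.3% to 5.52% of the uniquely aligned reads, and 94.3% to 94.6% fell on no gene. The library kit keeps strand, and most counts lie under the name of the gene on the opposite strand. A gene was therefore read under the entry whose exons lie opposite to its own, named in parentheses at first mention, and 3724 genes could be read this way. Such an entry samples only the stretch where both genes overlap, so levels are in CPM (counts scaled to the reads on genes of each library, with TMM scaling) and are not compared between genes. SG21 replicates 2 and 3 stand apart from the other 4 samples. Ambiguous reads, those that could belong to more than 1 gene, were 2.15% and 2.18% of reads on genes in them, against 2.71% in SG21 replicate 1 and 2.6% to 2.65% in the parental samples. Reads aligned to several places were 18.1% and 17.2% in these replicates, against 10.4% to 12.6% in the other 4. All SGCTRL samples share the low side of this split and no parental sample does. Results below are therefore also set against SG21 replicate 1 alone with the 3 parental samples. In that fit the spread of the single sample is taken from the other groups. A split term in the model leaves nearly the same comparison, since only SG21 in LPDS has samples on both sides of the split. With 1 sample left in a group, a call can be lost even where the difference is not smaller. The labels call the replicates biological but do not state which step was done separately, so a p-value here reflects only how far these samples differ among themselves.

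TMEM97 RNA (chromosome 17, 28319095 to 28328685 in hg38) did not pass the test of SG21 against parental cells in LPDS. It is read under IFT20, which overlaps its 3' end, at 121, 122 and 128 CPM in the SG21 samples and 142, 170 and 147 CPM in the parental samples. The groups do not overlap. The log2 fold change was -0.31 ± 0.12 (SE; edgeR quasi-likelihood test, adjusted p = 0.0952), and -0.34 with replicate 1 alone (edgeR adjusted p = 0.3). In FBS, where the samples are separate, the same comparison gave -0.47 and passed (edgeR adjusted p = 0.00551), and the difference between the media was 0.16 (edgeR adjusted p = 0.724). SG21 in LPDS was lower than SG12 in LPDS, with a log2 fold change of -0.66 (edgeR adjusted p = 9.86e-05). IFT20, a protein of intraflagellar transport on the other strand, is read under the name TMEM97 and gave -0.26 (edgeR adjusted p = 0.284). The stretch read lies at the 3' end, where an edit elsewhere in the gene need not change the RNA level, so these values do not test the knockout label.

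Across all entries, 1450 of 12822 passed the test at an adjusted p under 0.05, a background of 11.3%. SG21 was higher in 756 (5.9%) and lower in 694 (5.41%). Among the 3724 genes read from the opposite strand, 722 passed (19.4%), 416 higher (11.2%) and 306 lower (8.22%), and these are the shares behind the counts of list members below. The 2 groups of samples did not overlap in 3437 entries (26.8%), with SG21 above the parental samples in 14% and below them in 12.8%. With SG21 replicate 1 alone 608 entries passed, and 653 when the library split was a term of the model. SGCTRL, the other wild-type line, differed from the parental cells in 108 entries in LPDS (0.842%), and SG12 differed from them in 1243 (9.69%). The same lines in FBS gave 3088 entries (24.1%), or 1946 without parental replicate 2 in FBS. Of the 756 entries higher in LPDS, 411 were higher in FBS, which is 54.4% of the LPDS list and 29.2% of the FBS list, and 1 was lower in FBS. Of the 694 lower in LPDS, 395 were lower in FBS, which is 56.9% and 23.5% of the lists, and 14 were higher.

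The most extended pattern was a stretch of the long arm of chromosome 10 in which every entry was lower in SG21. The stretch was found after the values were seen, by taking entries above 5.7 CPM in chromosome order and looking for the longest run of neighbours that all differ by more than 0.5 on the log2 scale in the same direction. It holds 46 neighbouring entries between 96750288 and 102660680 (hg38), from the entry RPL13AP5 to TRIM8-DT, and the next longest run of the genome has 12. Within it the log2 fold changes ran from -2.35 to -0.79 with a median of -1.38, against a median of 0.02 over all 7146 entries above this level. Of the 46 entries 44 passed as lower in LPDS, values the run was chosen on. In all, 25 entries are read as the gene opposite, of which 24 passed, and 21 stand under their own name, of which 20 passed. The entries are not all separate genes, since MRPL43 is read under both SEMA4G and TWNK. Some lie near 5.7 CPM, such as KCNIP2-AS1 at 6.47 CPM. In the separate FBS samples 40 of the same 46 passed as lower, none as higher, with a median of -1.39 (background of lower calls in FBS, 13.1%).

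The far edge of the run is sharp. The last entries, TRIM8 and TRIM8-DT, lie at 102.64 Mb, and the next entry above 5.7 CPM starts at 102.85 Mb with a log2 fold change of 0.26. Of the 6 entries that follow, none passed in LPDS, and they ranged from -0.18 to 0.37. NT5C2 (CNNM2), a cytosolic purine 5'-nucleotidase, is the first gene after the edge with a high level. It had 388, 407 and 372 CPM in SG21 and 336, 364 and 336 CPM in parental cells, a log2 fold change of 0.17 ± 0.10 (edgeR adjusted p = 0.316). The near edge is less uniform. The entries just before the run, ENTPD1, CC2D2B, ZNF518A and TM9SF3, gave -0.14, -0.04, -0.31 and 0.18, and none passed in LPDS. PLCE1 and PLCE1-AS1 before them passed as lower (-0.56 and -0.99). RPL13AP5, the first entry of the run, was also lower in SG12 minus parental cells in LPDS (-1.9, edgeR adjusted p = 0.0108). The next entry starts at 97.33 Mb. Between 70 Mb and the run 24 of 58 entries passed as lower and none as higher, with a median of -0.50. Of all 7146 entries above 5.7 CPM, 568 were lower in LPDS. In FBS 25 passed as lower and 1 as higher, with a median of -0.40 (background of lower calls in FBS, 13.1%). In SG12 minus parental cells in LPDS 10 of these 58 entries were also lower and none higher, with a median of -0.13. Over all 7146 entries above 5.7 CPM, 507 were lower in SG12. SG21 minus SG12 had a median of -0.37 over the 58.

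**Figure D1:**
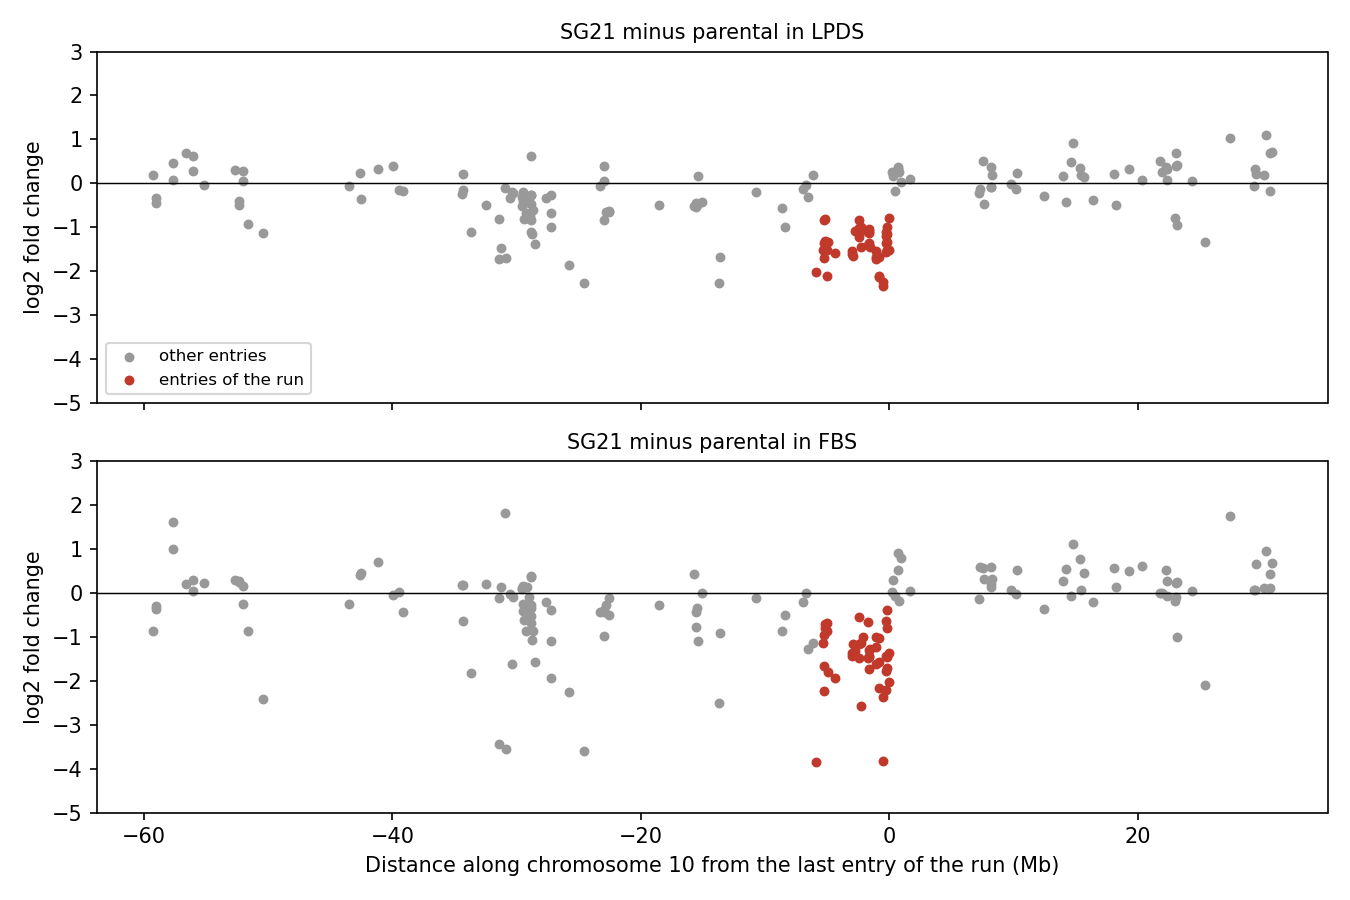
Log2 fold change of SG21 minus parental cells for entries above 5.7 CPM on chromosome 10, in LPDS (top) and in FBS (bottom), against the distance in Mb from the last entry of the run. Each point is 1 entry, and the 46 red points of the run lie between -2.35 and -0.79 in LPDS, while the 53 points to the right of the edge have a median of 0.18 in LPDS, with a range of -1.34 to 1.10, and a median of 0.23 in FBS.

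The genes of the run have varied roles, and several of the largest decreases of the comparison are among them. ACTR1A (ENSG00000273262; chromosome 10, 102461881 to 102502711) encodes the Arp1 filament of dynactin, the partner of the dynein motor. It had 172, 169 and 160 CPM in SG21 against 510, 479 and 446 CPM in parental cells, and fell by 1.52 on the log2 scale (SE 0.11, edgeR adjusted p = 2.06e-12). POLL (DPCD), a DNA polymerase of base excision repair and end joining, had 55.6, 76.1 and 72.6 CPM against 225, 241 and 214 CPM, a log2 fold change of -1.73 ± 0.13 (edgeR adjusted p = 6.03e-12). In neither gene do the samples of the groups come near each other. NDUFB8 (HIF1AN), a subunit of respiratory complex I, fell by 1.08, from 462, 424 and 397 CPM to 268, 190 and 149 CPM. LZTS2 (PDZD7), which restrains Wnt signalling, fell by 1.09, and its 3 parental samples at 312, 314 and 311 CPM were nearly level. MRPL43 (TWNK), a protein of the mitochondrial ribosome, fell by 1.13, and CWF19L1 (CHUK-DT) by 1.22. DNMBP (DNMBP-AS1), an activator of the small GTPase CDC42, fell by 1.10, and FBXL15 (PSD), a substrate adaptor of a ubiquitin ligase, by 1.12. The entry named SCD also fell, by 1.46, from 77.5, 114 and 78.4 CPM to 15.6, 40.9 and 40.7 CPM. SCD encodes stearoyl-CoA desaturase, which makes the monounsaturated fatty acids of membrane and storage lipids. It has no gene on its other strand to be read under, so this entry holds leaked or unannotated reads and is not a measure of SCD RNA. LZTS2, DNMBP, FBXL15, SCD and NT5C2 were named after their values were seen.

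The run was seen in all 3 SG21 samples and not in SGCTRL or SG12. Set against the mean of the parental samples, the median log2 ratio of the 46 entries was -1.40 in SG21 replicate 1, -1.22 in replicate 2 and -1.45 in replicate 3. With replicate 1 alone 24 of the 46 passed. In SGCTRL the median difference from parental cells was 0.05 and no entry of the run passed, while in SG12 it was -0.01 with 5 lower and 4 higher (background of lower and higher calls in SG12, 5.05% and 4.64%). Tested directly against SG12 in LPDS, which shares the SG21 samples, 41 of the 46 entries were lower in SG21 with a median of -1.36 (background of lower calls, 8.75%). Against SGCTRL 39 were lower with a median of -1.37 (background, 5.39%). RNA alone was measured, and DNA copy number was not analysed here.

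Shallower shifts over neighbouring genes appeared in other places, also noted after the values were seen. Of 209 windows of 10 Mb with at least 10 entries above 5.7 CPM, 186 had a median log2 fold change within 0.3 of 0. Of all 7146 entries above 5.7 CPM, 568 were lower in LPDS and 940 in FBS. The first 20 Mb of chromosome 4 had 17 of 44 entries lower and none higher, with a median of -0.78. In FBS 21 of the 44 were lower, with a median of -0.52. Set against the parental mean, the median of these entries was -0.74, -0.72 and -0.70 in SG21 replicates 1, 2 and 3. LCORL (NCAPG; chromosome 4, 17.8 Mb), a transcription cofactor, fell there by 1.13, from 75.5, 71.5 and 71.8 CPM to 33.7, 32.4 and 34.1 CPM. Further along chromosome 4, between 40749897 and 48860203, 12 neighbouring entries were all higher by more than 0.5. On chromosome 1 from 160 Mb on, where each window with at least 10 entries had a median of 0.29 or more, 52 of 159 entries were higher and 3 lower, with a median of 0.41. Of all 7146 entries above 5.7 CPM, 637 were higher in LPDS. In FBS 68 of the 159 were higher and 10 lower, with a median of 0.42 (1122 of all 7146 were higher). Set against the parental mean, the median was 0.38, 0.42 and 0.38 in SG21 replicates 1, 2 and 3. SG12 minus parental cells had a median of 0.34 over the 159 entries, with 36 higher and 2 lower (483 of all 7146 were higher). SG21 minus SG12 had a median of 0.10. SNAP47 (JMJD4; chromosome 1, 227.7 Mb), a SNARE protein of vesicle fusion, lies in this region and rose by 1.46, from 96.2, 79.3 and 81.4 CPM to 181, 281 and 243 CPM. HNRNPU (COX20; chromosome 1, 244.8 Mb), an RNA-binding protein of the nuclear matrix, rose by 1.12 in the same arm.

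The genes of the mesenchymal state that passed were all lower in SG21. Of 17 listed markers 7 could be read and 4 passed, all lower, with a median of -0.59 against 0.01 over all entries. Of these 7, 3 were lower with replicate 1 alone. VIM (VIM-AS1), the intermediate filament vimentin, had 11400, 16600 and 14700 CPM in SG21 against 32100, 29800 and 25300 CPM in parental cells, a log2 fold change of -1.03 ± 0.11 (edgeR adjusted p = 3.04e-08). CD44 (CD44-AS1), the hyaluronan receptor, had 125, 101 and 107 CPM against 305, 270 and 283 CPM, and fell by 1.36. TWIST1 (ENSG00000232821), a transcription factor that drives the mesenchymal programme, had 27.1, 17.9 and 26.4 CPM against 81.6, 61.2 and 72.6 CPM, and fell by 1.60. The samples of the 2 groups do not overlap in any of the 3 genes, and their calls held with replicate 1 alone. SPARC (CLMAT3), a collagen-binding matrix protein, fell by 0.59, a call lost with replicate 1 alone (-0.43, edgeR adjusted p = 0.217). In FBS the log2 fold changes of VIM, CD44 and TWIST1 were -0.90, -1 and -0.67, and all passed. In SG12 minus parental cells in LPDS they were 0.08, 0.34 and 0.31, with no pass, and SG21 minus SG12 passed for each (-1.11, -1.70 and -1.91). The labels call the cells epithelial, and of 23 epithelial markers only 1 could be read (CDH3), so the level of the epithelial programme cannot be given from the opposite strand. The list of fibroblast markers read 3 of 14 genes, with 2 lower. Entries under the markers' own names hold mostly leaked reads or, as the entry ZEB1 does, reads of the gene on the other strand. Their sums therefore describe the entries and not the RNA of the markers. The 23 epithelial markers summed to 94.4 to 117 CPM in SG21 and 68.5 to 89.7 CPM in parental cells, groups that do not overlap. CLDN4 was the highest of them at 48.2 CPM, and 5 were at 0 in all 6 samples, EPCAM and KRT19 among them. The 17 mesenchymal markers summed to 152 to 204 and 275 to 372 CPM, and the 14 fibroblast markers to 61.3 to 115 and 185 to 314 CPM, also without overlap. The 10 endothelial markers summed to 11 to 16.2 and 10.8 to 13 CPM, with 3 at 0. The 19 leukocyte markers summed to 122 to 150 and 102 to 154 CPM, with CD4 the highest at 60.3 CPM, 4 above 5.7 CPM and 7 at 0. The part of other cells in the mesenchymal result was not tested. In bulk RNA, fewer cells of a kind and less RNA per cell cannot be told apart.

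Of the actin and motility genes, 17 of 64 could be read, 7 were lower and 2 higher, with a median of -0.09 that ran from -0.19 to -0.09 when 1 sample was left out, lowest without parental replicate 3. ACTA2 (ACTA2-AS1; chromosome 10, 88.9 Mb), smooth muscle actin and a marker of contractile fibroblasts, had the largest decrease among the protein-coding genes read above 48 CPM, the level set for naming genes by size. It had 54.5, 61.9 and 45.1 CPM in SG21 against 279, 253 and 247 CPM in parental cells, a log2 fold change of -2.26 ± 0.14 (edgeR adjusted p = 2.52e-14). The decrease was shared with SG12, where it was -2.12, and SG21 minus SG12 was -0.14 (edgeR adjusted p = 0.585). SGCTRL minus parental cells gave -0.50 (edgeR adjusted p = 0.0523). CNN2 (ENSG00000279753), the actin-binding calponin 2, had 623, 593 and 559 CPM against 1110, 970 and 946 CPM, and fell by 0.77. MYL12A (MYL12-AS1), a myosin regulatory light chain, fell by 0.59, and TPM4 (ENSG00000279198), a tropomyosin that coats actin filaments, by 0.76, from 727, 590 and 598 CPM to 445, 378 and 309 CPM. VCL (AP3M1), the adhesion protein vinculin, fell by 1.39. TPM4 and VCL were named after their values were seen. The calls of MYL12A, TPM4 and VCL were lost with replicate 1 alone (-0.45, -0.52 and -0.86, edgeR adjusted p = 0.0784, 0.114 and 0.202), where 2 of the 17 genes were lower. ESPN (TNFRSF25), an actin-bundling protein of microvilli, rose by 1.21, from 23.1, 18.1 and 21.4 CPM to 44.9, 52.8 and 46.2 CPM. BAIAP2L1 (BRI3), which links membranes to actin, rose by 0.64, and SGCTRL minus parental cells gave 0.66 for it (edgeR adjusted p = 0.00244).

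Many actin and contractile genes carry a CArG box in the promoter, the site to which serum response factor binds. The RefSeq promoter table (GRCh38.p14) holds 15 of the 17 genes. The 250 bases before their starts were searched on both strands for the exact box, with no overlap to another motif considered. The exact box is CC, then only A or T, then GG, 10 bases in all. The 15 genes have 22 promoters in the table, and 3 of the 22 hold the box, against 407 of all 35116 promoters of this length (1.16%). Of the 7 genes that fell, CNN2 and TPM4 have the exact box in this stretch, and ACTA2, MYL12A, MYL6, MYH10 and VCL do not. A box that departs from this form or lies farther away was not searched for, so a gene without a match is not shown to lack one. The 3 windows are shown as the matches found, and the third gene, MYLK, the myosin light chain kinase, did not pass (-0.09, edgeR adjusted p = 0.824). Each window has 60 bases, 5' to 3' on the strand of the gene, with the box in capitals. A match describes these letters only. CNN2 lies on the plus strand at chr19:1026494-1026553, MYLK on the minus strand at chr3:123620608-123620667 and TPM4 on the plus strand at chr19:16067340-16067399.
CNN2: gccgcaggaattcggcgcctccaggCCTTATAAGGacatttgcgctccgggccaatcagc
MYLK: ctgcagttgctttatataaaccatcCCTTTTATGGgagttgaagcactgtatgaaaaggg
TPM4: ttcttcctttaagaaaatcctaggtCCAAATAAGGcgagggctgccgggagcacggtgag

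The guidance genes that passed were all lower, and the matrix genes were split. Of 11 guidance and growth factor genes that could be read (of 73), 5 fell and none rose, with a median of -0.42, and 3 fell without SG21 replicate 3, parental replicate 1 or parental replicate 2. EFNB2 (ENSG00000284966), the ligand ephrin-B2, had 63, 76.1 and 77 CPM in SG21 against 155, 153 and 161 CPM in parental cells, a log2 fold change of -1.12 ± 0.12 (edgeR adjusted p = 4.4e-08). NRP1 (ENSG00000238258), a co-receptor of VEGF and semaphorins, had 40.8, 47.4 and 47 CPM against 119, 94.7 and 106 CPM, and fell by 1.23. SG12 went the other way for NRP1, at 0.67 against parental cells (edgeR adjusted p = 0.00164). NRP2, SEMA5A and SLIT3 fell by 0.79, 0.65 and 0.42, and these 3 calls were lost with replicate 1 alone, where 2 of the 11 genes passed. NRP2 was also lost without parental replicate 1 or 2 (-0.70 and -0.73), SEMA5A without SG21 replicate 3 or parental replicate 2 (-0.56 and -0.59), and SLIT3 without SG21 replicate 3 or parental replicate 1 (-0.35 and -0.34). Of 12 matrix and integrin genes 4 fell and 3 rose, with a median of -0.34 (-0.17 without parental replicate 1), and with replicate 1 alone 1 was lower and 2 were higher. PLAU (C10orf55; chromosome 10, 73.9 Mb), the urokinase protease, fell by 1.17, from 52.4, 42.6 and 38.9 CPM to 13, 26.7 and 18.7 CPM. LAMA1 (ENSG00000265069), the laminin alpha 1 chain, rose by 1.67, from 10.2, 12 and 12.6 CPM to 30.8, 40 and 41.1 CPM, and SGCTRL minus parental cells gave 1.20 (edgeR adjusted p = 0.0156). COL18A1 (SLC19A1), the basement membrane collagen whose end fragment is endostatin, rose by 0.67. NKD1 (ENSG00000205414; chromosome 16, 50.5 Mb), an inhibitor of Wnt signalling, was the only 1 of 10 genes of the Wnt, Notch, TGF-beta and Hippo list to pass. It fell by 1.38, from 237, 245 and 207 CPM to 90.5, 91.7 and 82.5 CPM, and lies within a run of 7 lower neighbours.

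Genes of cholesterol synthesis did not move together in LPDS. Of the 22 enzymes 6 could be read, 2 were higher, 1 was lower and the median was 0.20. ACAT2 (TCP1), the cytosolic thiolase that starts the pathway, had 858, 717 and 641 CPM in SG21 against 398, 422 and 402 CPM in parental cells, a log2 fold change of 0.86 ± 0.10 (edgeR adjusted p = 1.72e-07). LSS (ENSG00000223901; chromosome 21, 46.2 Mb), which closes the sterol rings, had 603, 775 and 766 CPM against 505, 463 and 476 CPM and rose by 0.57, a call lost with replicate 1 alone (0.33, edgeR adjusted p = 0.132). HMGCS1 (ENSG00000261604), which makes HMG-CoA, had 2520, 2940 and 2860 CPM against 1920, 2620 and 2370 CPM, overlapping groups with a log2 fold change of 0.27 ± 0.10 (edgeR adjusted p = 0.0842). It passed at 0.37 without parental replicate 2 (edgeR adjusted p = 0.0252). IDI1 (IDI2-AS1), the isomerase of isopentenyl diphosphate, depended on the samples used. It had 487, 245 and 225 CPM in SG21 replicates 1, 2 and 3 against 441, 422 and 531 CPM, so that the decrease of 0.55 (edgeR adjusted p = 0.0298) rests on replicates 2 and 3, and replicate 1 alone gave 0.07. The call was lost without SG21 replicate 2 or 3 (-0.43 and -0.38) and without parental replicate 1 or 3 (-0.58 and -0.50). FDFT1, which makes squalene, gave 0.14 with no pass. In FBS 3 of the 6 enzymes were higher and none lower, where 26.6% of the genes read from the opposite strand passed, 16.7% higher and 9.85% lower. Against SGCTRL in LPDS, where the SG21 samples are the same, ACAT2 gave 0.91 (edgeR adjusted p = 5.16e-08), while HMGCS1 was lower at -0.48 (edgeR adjusted p = 0.00123).

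Sterol uptake and control genes were split as well. Of 33 genes 9 could be read, 2 rose, 2 fell and the median was -0.14. SREBF1 (RAI1), the gene of SREBP1, had 24.1, 36.6 and 34.1 CPM against 56, 42.3 and 64.4 CPM and fell by 0.77 (edgeR adjusted p = 0.00502), a call that held in all 17 alternatives. The other 3 calls were lost with replicate 1 alone. SREBF2 (SREBF2-AS1), the gene of SREBP2, had 583, 827 and 722 CPM against 516, 595 and 545 CPM and rose by 0.36. NPC1 (RMC1) had 63.8, 49.7 and 46.6 CPM against 78.8, 74.4 and 74.8 CPM and fell by 0.51. LRP8 (MAGOH-DT), a receptor for apolipoprotein E, rose by 0.43. With replicate 1 alone the 3 values were 0.08, -0.25 and 0.36 (edgeR adjusted p = 0.829, 0.64 and 0.251), and SREBF1 was the 1 gene of the 9 that passed there. Leaving out a single sample ended the SREBF2 call for SG21 replicates 2 and 3 and parental replicates 1 and 3 (0.20, 0.32, 0.32 and 0.30). It ended the NPC1 call for SG21 replicates 2 and 3 and parental replicates 1 and 2 (-0.50, -0.46, -0.48 and -0.53), and the LRP8 call for SG21 replicate 2 and parental replicate 3 (0.33 and 0.34). Against SGCTRL in LPDS, SREBF1 did not pass (-0.48, edgeR adjusted p = 0.108), while NPC1 was lower (-0.69, edgeR adjusted p = 0.00433).

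Among fatty acid and glycerolipid genes 19 of 59 could be read, 2 rose, 1 fell and the median was 0.08, where 19.4% of all genes read this way passed. The count was 2 higher and none lower with replicate 1 alone. When 1 sample was left out, 3 were higher without SG21 replicate 1 or parental replicate 1, 2 were lower without SG21 replicate 3, and none was lower without SG21 replicate 1 or 2 or parental replicate 2 or 3. CHPT1 (SYCP3), which makes phosphatidylcholine, had 148, 173 and 162 CPM in SG21 against 80, 112 and 92.4 CPM in parental cells and rose by 0.76 (SE 0.13, edgeR adjusted p = 0.000103). ACLY (ENSG00000274630), which makes the cytosolic acetyl-CoA for sterols and fatty acids, had 1460, 1490 and 1460 CPM against 1080, 1110 and 1090 CPM and rose by 0.43 (edgeR adjusted p = 0.00154). Both groups were tight in ACLY, and the call held with replicate 1 alone. HSD17B12, an enzyme of fatty acid elongation, fell by 0.54, lost with replicate 1 alone (-0.74, edgeR adjusted p = 0.0881) and without SG21 replicate 1 or 2 or parental replicate 2 or 3 (-0.49, -0.60, -0.52 and -0.56). None of 6 fatty acid oxidation genes and none of 8 genes of mitochondrial dynamics and import passed. Of 15 respiratory chain genes that could be read (of 91) 2 passed, with a median of 0.01, against 19.4% of all genes read this way. The list depends on SG21 replicate 1: with it alone 2 were higher and 1 lower with a median of 0.25, and without it none was higher and 3 were lower with a median of -0.18. Without SG21 replicate 2 or parental replicate 3, 2 were lower and none higher (medians of -0.08 and -0.09). The gene that fell was NDUFB8 of the chromosome 10 run, and the gene that rose was COX20 (HNRNPU), an assembly factor of cytochrome oxidase on chromosome 1 at 244.8 Mb, by 0.35. COX20 and HNRNPU are each read under the other's name, as are SLC19A1 and COL18A1. The COX20 call was lost without SG21 replicate 1 (0.20, edgeR adjusted p = 0.197) and without SG21 replicate 2, parental replicate 1 or parental replicate 3 (0.31, 0.31 and 0.28). No gene of the mitochondrial genome could be read from the opposite strand. Counts on mitochondrial entries were 0.37%, 0.127% and 0.169% of reads on genes in SG21 replicates 1, 2 and 3 and 0.328% to 0.403% in parental samples, and they were 0.142% to 0.239% in SGCTRL in LPDS. In the TCA cycle 3 of 11 genes rose and none fell, PDHB by 0.41, IDH3A by 0.38 and MPC2 by 0.41. Leaving out SG21 replicate 1 ended all 3 calls (0.34, 0.27 and 0.11, edgeR adjusted p = 0.0512, 0.11 and 0.633), as did leaving out parental replicate 3 (0.32, 0.32 and 0.30). PDHB and IDH3A were also lost without SG21 replicate 2 (0.34 for each) and MPC2 without parental replicate 2 (0.39), while with replicate 1 alone all 3 passed.

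**Figure D2:**
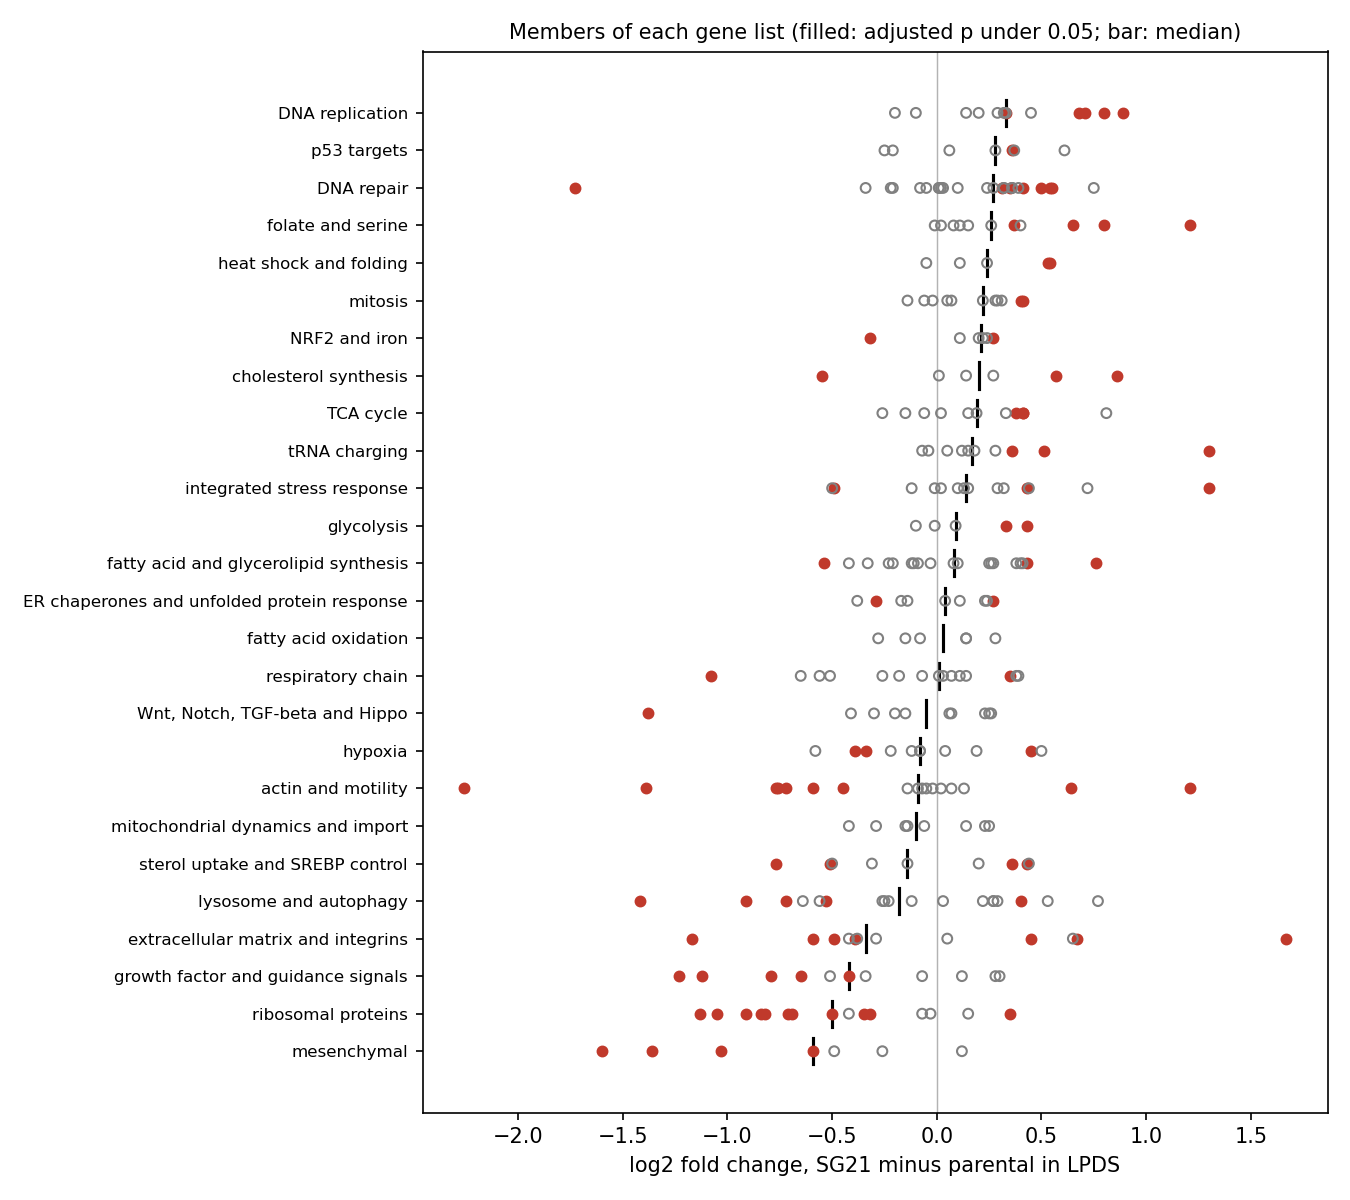
Log2 fold change of SG21 minus parental cells in LPDS for each gene that could be read, 1 row per list with at least 5 such genes, ordered by the list median (black bar). Filled points passed at an adjusted p under 0.05, and the lists run from mesenchymal genes, median -0.59, to DNA replication genes, median 0.33.

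The genes of DNA replication, repair and folate use that passed were higher but for 1. Of 13 replication genes that could be read (of 65) 5 rose (background, 11.2%) and none fell, with a median of 0.33. Without SG21 replicate 1 the median was 0.19, with 4 higher and 1 lower, and without SG21 replicate 2, parental replicate 1 or parental replicate 3, 3 were higher. MCM2 (ENSG00000285600), part of the replicative helicase, had 901, 1190 and 1040 CPM in SG21 against 577, 589 and 522 CPM in parental cells, a log2 fold change of 0.89 ± 0.11 (edgeR adjusted p = 1.34e-07). RFC5 (ENSG00000277873), a subunit of the clamp loader, had 100, 97.6 and 79.6 CPM against 49.9, 64.1 and 57.8 CPM and rose by 0.68. Both calls held in every alternative. LIG1, the ligase of Okazaki fragments, rose by 0.71 and the kinase CDK2 by 0.33. LIG1 was lost with replicate 1 alone (0.63, edgeR adjusted p = 0.0705), and CDK2 without SG21 replicate 1 (0.15, edgeR adjusted p = 0.453). Of the 13, 3 passed with replicate 1 alone. CDK2 passed only without SG21 replicate 3 among the fits that left out 1 sample, and without SG21 replicate 2 and parental replicates 1, 2 and 3 it gave 0.34, 0.37, 0.34 and 0.23. Against SG12 in LPDS 12 of the 13 were higher in SG21 (background of higher calls among genes read from the opposite strand, 17.8%). In FBS 1 of the 13 passed, higher, against 16.7%.

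Of 25 repair genes 6 rose and 1 fell, and the 1 that fell was POLL of the chromosome 10 run. RAD54L (LRRC41), a motor of homologous recombination, had 334, 371 and 331 CPM against 232, 248 and 229 CPM and rose by 0.55. The Fanconi anemia genes FANCL (VRK2) and FANCA (ZNF276) rose by 0.54 and 0.50, and FANCA was lost with replicate 1 alone (0.37, edgeR adjusted p = 0.238), where 4 of the 25 were higher. FANCA was also lost without SG21 replicate 3 (0.39), and FANCL without parental replicate 1 (0.44, edgeR adjusted p = 0.0507). Of 11 folate and serine genes 4 rose (background, 11.2%) and none fell, with a median of 0.26. Without SG21 replicate 2, parental replicate 1 or parental replicate 3, 2 rose, and without parental replicate 3 the median was 0.13. SLC19A1 (COL18A1; chromosome 21, 45.5 Mb), the reduced folate carrier, had 101, 138 and 136 CPM against 44.3, 55.1 and 61.4 CPM and rose by 1.21 (SE 0.16, edgeR adjusted p = 7.28e-07). SLC46A1 (SARM1), the proton-coupled folate transporter, rose by 0.65, lost with replicate 1 alone (0.38, edgeR adjusted p = 0.251), where SLC19A1 was the only 1 of the 11 to pass. LSS, COL18A1 and SLC19A1 lie together at the end of chromosome 21. The window there from 40 Mb to 50 Mb had 7 of 27 entries higher, none lower and a median of 0.41. Of all 7146 entries above 5.7 CPM, 637 were higher.

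Most ribosomal protein genes that could be read were lower in SG21. Of 15 that could be read 10 fell and 1 rose, with a median of -0.50. RPS3A (SH3D19), of the small subunit, had 784, 826 and 719 CPM in SG21 against 1160, 1350 and 1250 CPM in parental cells, a log2 fold change of -0.69 ± 0.10 (edgeR adjusted p = 3.25e-06). RPS28 (KANK3) had 42.6, 47.7 and 43.3 CPM against 77.5, 70.7 and 71.3 CPM and fell by 0.71. RPL17, RPL10 and RPL32 fell by 0.84, 0.50 and 1.05. These 3 calls were lost with replicate 1 alone (-0.42, -0.40 and -0.71, edgeR adjusted p = 0.221, 0.0765 and 0.174), where 2 of the 15 genes passed as lower, with a median of -0.40. In FBS, where no SG21 or parental sample is on the low side of the split, 5 of the 15 were lower and none higher, against 9.85% lower among all genes read this way.

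Lysosome and autophagy genes had 18 of 77 members that could be read, of which 4 fell and 1 rose, with a median of -0.18 (-0.06 without parental replicate 2 and -0.29 without parental replicate 3). WIPI1 (ARSG; chromosome 17, 68.4 Mb), which marks the membrane where autophagosomes form, had 47.1, 37.5 and 37.8 CPM in SG21 against 106, 124 and 96.5 CPM in parental cells. Its log2 fold change was -1.42 ± 0.14 (edgeR adjusted p = 1.95e-09), and that in FBS was -0.38 (edgeR adjusted p = 0.0391). CTSA (ENSG00000271984), the lysosomal protective protein cathepsin A, had 164, 173 and 151 CPM against 300, 242 and 264 CPM and fell by 0.72, with -0.73 in FBS. TPP1, a lysosomal peptidase, fell by 0.53 and GABARAPL1, an autophagosome protein, by 0.91. SQSTM1 (MRNIP), the autophagy receptor p62, rose by 0.40. With replicate 1 alone WIPI1 and CTSA passed and the other 3 did not (-0.40, -0.26 and 0.30, edgeR adjusted p = 0.227, 0.787 and 0.106). GABARAPL1 was also lost without SG21 replicate 2 or 3 (-0.81 and -0.71) and without parental replicate 1, 2 or 3 (-0.94, -0.95 and -0.90).

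The lists of the integrated stress response, hypoxia and the endoplasmic reticulum passed at shares not far from that of all genes read this way. Of these, 19.4% passed, 11.2% higher and 8.22% lower. Of 14 integrated stress response genes 2 rose and 1 fell, and of 11 hypoxia genes 1 rose and 2 fell. Of 9 genes in the list of endoplasmic reticulum chaperones and the unfolded protein response 1 rose and 1 fell. With replicate 1 alone 1 of the 14 was higher, none of the 9 passed, and 2 of the 11 were lower. Single samples moved these counts, and 4 of the 14 were higher without SG21 replicate 1. None of the 9 passed without SG21 replicate 2 or 3 or parental replicate 2 or 3, and no hypoxia gene passed without parental replicate 1. Of 5 heat shock and folding genes 2 rose, and both calls held in every alternative. FKBP4 (ENSG00000258092), a co-chaperone of HSP90, had 1380, 1480 and 1330 CPM in SG21 against 967, 966 and 949 CPM in parental cells and rose by 0.54. CCT5 (ENSG00000271980), a subunit of the chaperonin that folds actin and tubulin, had 2540, 2710 and 2470 CPM against 1690, 1890 and 1760 CPM and rose by 0.53. Of 10 tRNA charging genes 3 rose and of 11 mitosis genes 2 rose, with none lower, and with replicate 1 alone 1 and 0 passed. Without parental replicate 3 the counts higher were 1 and 0. Without SG21 replicate 1 none of the mitosis genes was higher and 1 was lower, and none passed without SG21 replicate 2 or parental replicate 1. In glycolysis 2 of 5 rose, the aldolases ALDOA by 0.43 and ALDOC by 0.33, and ALDOC was lost with replicate 1 alone (0.35, edgeR adjusted p = 0.137) and without SG21 replicate 1 or 2 or parental replicate 2 or 3 (0.29, 0.22, 0.32 and 0.27). GATA6 (ENSG00000266283), a transcription factor of the foregut and the only 1 of 25 gastric markers to be read, had 43, 41.2 and 55.8 CPM against 69.8, 77.4 and 72.1 CPM and fell by 0.65. THY1 (THY1-AS1), a surface protein of fibroblasts, fell by 0.63, and PIEZO2 (ENSG00000264843), a stretch-gated channel, by 1.08. Both were also lower in SG12 minus parental cells in LPDS, at -1.05 and -1.11. Of 6 genes of the NRF2 and iron list PRDX2, a peroxidase, rose by 0.27 and FTH1, the ferritin heavy chain, fell by 0.32. FTH1 was lost with replicate 1 alone (-0.08). PRDX2 was lost without SG21 replicate 1 or 2 or parental replicate 2 or 3 (0.16, 0.21, 0.24 and 0.16). MDM2, the ligase that degrades p53, was the only 1 of 7 p53 targets to pass and rose by 0.36, lost with replicate 1 alone (0.34, edgeR adjusted p = 0.252) and without any single sample of the 6 (0.26 to 0.38). None of 2 lipid droplet genes, 3 interferon genes and 2 histone genes passed, and SREBF1 was the 1 of 3 LXR targets that did.

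**Figure D3:**
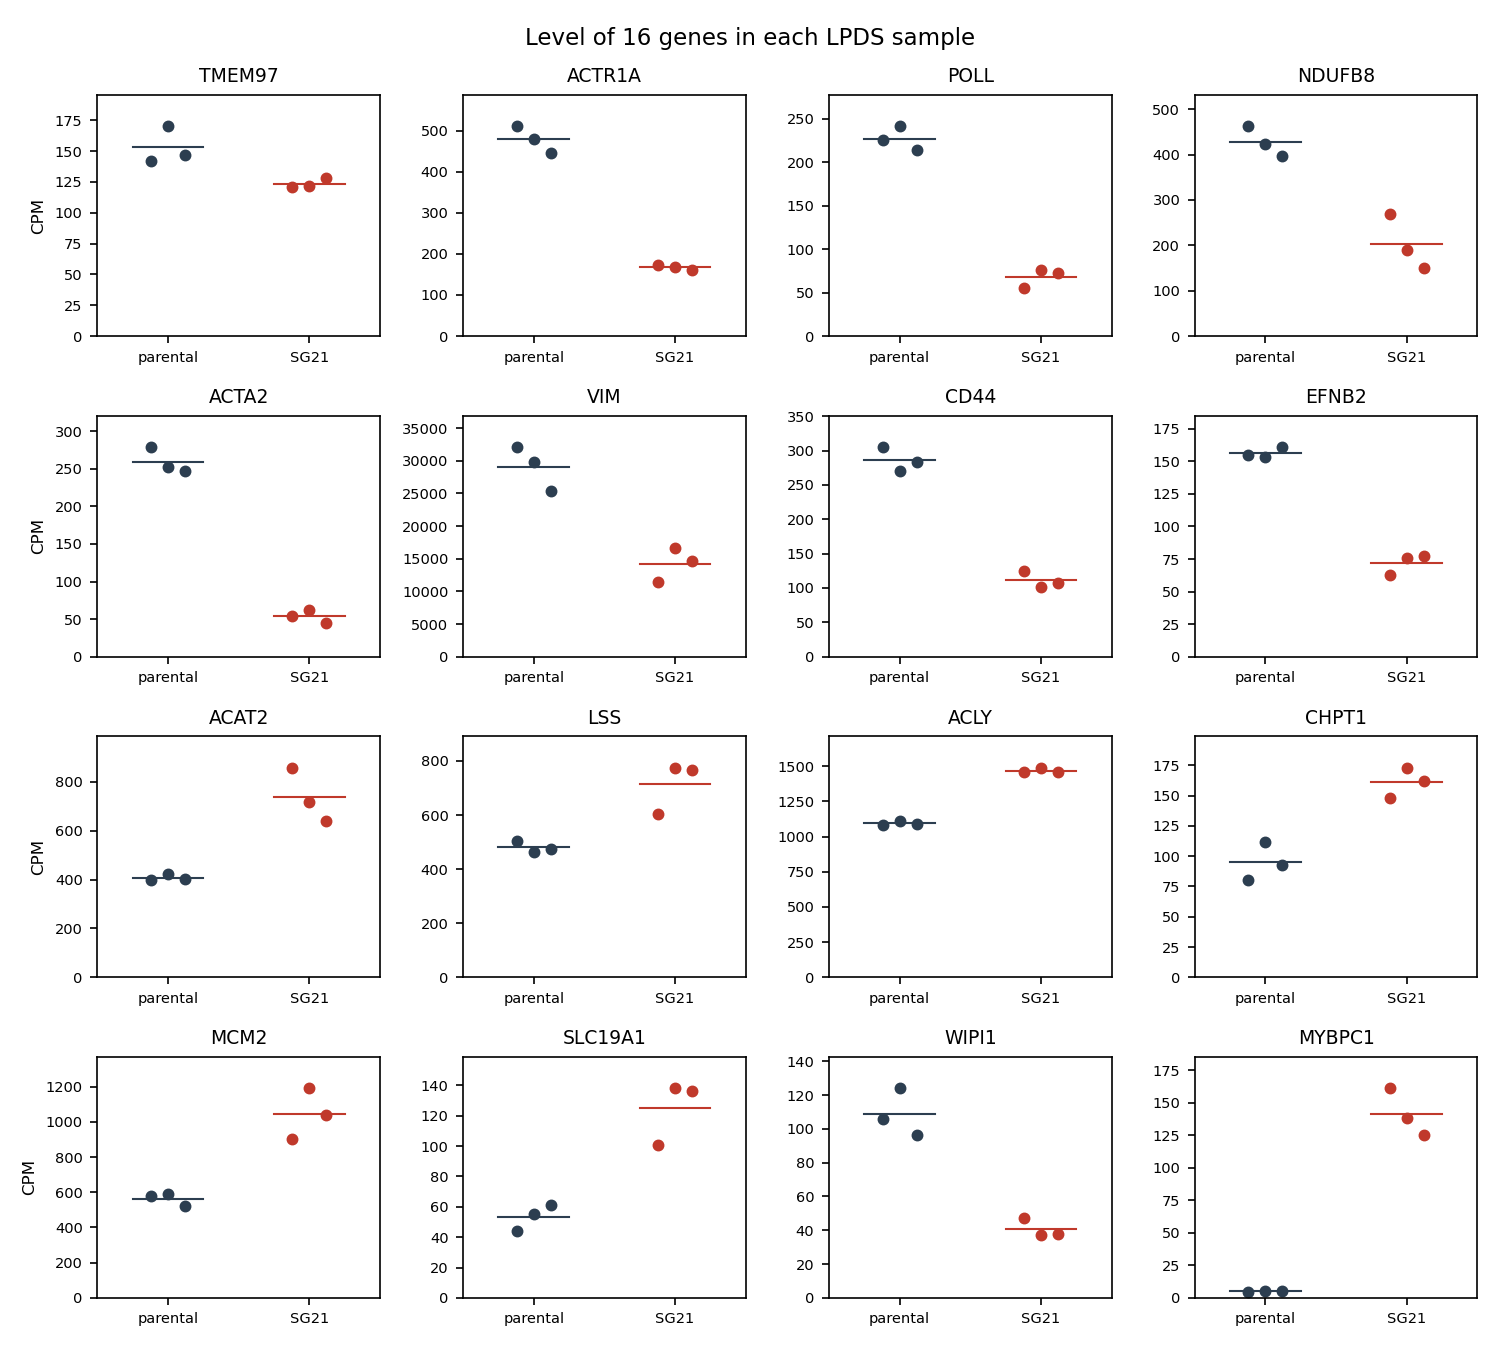
Level in CPM of 16 genes in the 3 parental and the 3 SG21 samples grown in LPDS, with each axis from 0, a point per sample (replicates 1 to 3 from left to right) and a line at the group mean. ACTA2 falls from 247 to 279 CPM to 45.1 to 61.9 CPM, while MYBPC1 goes from 4.47 to 5.39 CPM up to 125 to 161 CPM.

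Among the largest increases at a high level, CCDC3 (ENSG00000285520), a secreted coiled-coil protein of fat and vessel cells, had 203, 285 and 258 CPM in SG21 against 82, 87.4 and 79.2 CPM in parental cells and rose by 1.59 (SE 0.14, edgeR adjusted p = 1.1e-10). FXYD6 (FXYD6-AS1), a regulator of the sodium pump, rose by 1.47 and LRATD2 (PCAT1) by 1.49. SLCO4A1 (SLCO4A1-AS1), an organic anion transporter, had 119, 159 and 151 CPM against 68.6, 62.4 and 68.5 CPM and rose by 1.11, and in FBS by 0.41. NRG4 (FBXO22), a ligand of the receptor ERBB4, rose by 1.04 and CACNA1H (TPSG1), a T-type calcium channel, by 1.07. PROCR (ENSG00000278367), the endothelial protein C receptor, was among the largest decreases, from 82, 71.5 and 57.8 CPM to 31.2, 21.6 and 30.8 CPM, a log2 fold change of -1.34. SGCTRL minus parental cells gave -0.14 for CCDC3 and 0.53 for PROCR, but 0.95 for FXYD6, 0.66 for LRATD2 and 0.66 for SLCO4A1. Named after their values were seen, 3 further genes changed more. MYBPC1 (ENSG00000257514), a myosin-binding protein of muscle, had 161, 138 and 125 CPM against 4.47, 5.39 and 5.21 CPM, a log2 fold change of 4.79 ± 0.24 (edgeR adjusted p = 3.05e-17). SELENOP (CCDC152), the secreted selenium carrier, had 120, 124 and 110 CPM against 14.2, 15.7 and 17 CPM, a log2 fold change of 2.90. NEFL (ENSG00000272157), the light neurofilament, had 2.97, 5.68 and 1.83 CPM against 34.9, 52.1 and 36.2 CPM, a log2 fold change of -3.49. In SG12 minus parental cells MYBPC1 and NEFL moved likewise, by 3.24 and -3.97, and SELENOP gave -0.02. SGCTRL minus parental cells gave 1.25 for SELENOP (edgeR adjusted p = 0.00502). The calls of the 10 genes named here held in all 17 alternatives, replicate 1 alone among them.

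Few entries passed the test of whether the SG21 effect differed between the media, and a difference that did not pass is not shown to be absent. The difference of SG21 minus parental in LPDS from that in FBS passed in 107 of 12822 entries (0.835%), 35 higher in LPDS (0.273%) and 72 lower (0.562%). This count depends on single samples, being 382 without SG21 replicate 1 in LPDS, 30 without SG21 replicate 2 in LPDS, 236 without parental replicate 1 in FBS, 32 without parental replicate 2 in FBS and 6 when the split was a term of the model. Of the genes named above, MCM2 and WIPI1 are among the 107, with differences of 0.66 and -1.04 (edgeR adjusted p = 0.0231 and 0.00719). MCM2 was lost without SG21 replicate 2 or 3 or parental replicate 3 in LPDS (0.57, 0.62 and 0.60) and without SG21 replicate 3 in FBS (0.65). None of the 46 entries of the chromosome 10 run is, and 6 of the 46 (13%) had an unadjusted p under 0.05, against 17.7% of all 7146 entries above 5.7 CPM.

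**Figure D4:**
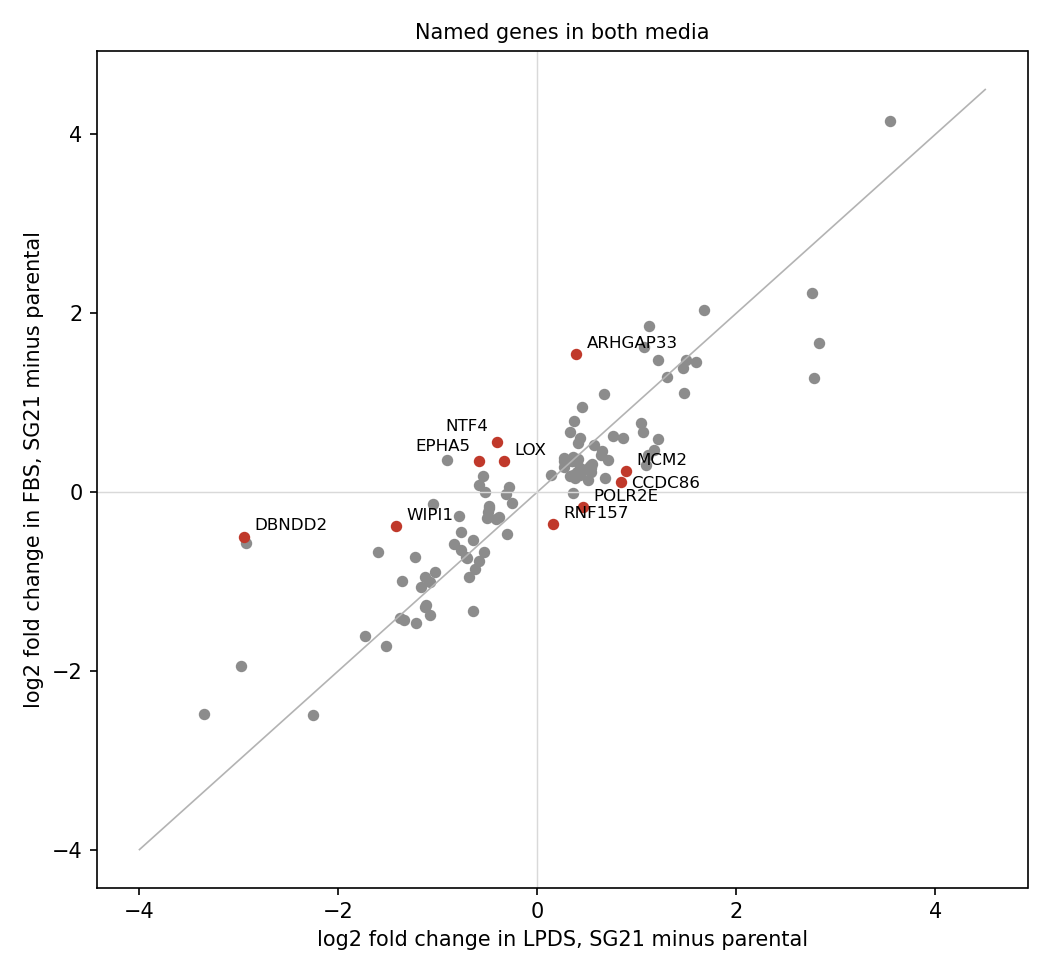
Log2 fold change of SG21 minus parental cells in FBS against that in LPDS for the genes named by rule, each a point, with the line of equal change. The 10 red points with names passed the test of the difference between media, such as ARHGAP33 at 0.39 in LPDS and 1.54 in FBS.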

How the data were processed

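Total RNA of 24 samples was depleted of ribosomal RNA with a stranded kit and sequenced. The authors deposited raw counts per gene, 1 table per sample with rows for reads on no gene, ambiguous reads and reads aligned to several places, which were kept out of library sizes. Tools named in the submitters' processing notes are bcl2fastq and STAR with hg38. The counting program and its strand setting are not given in the sources used here.

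Counts of all 24 samples were fitted with edgeR 4.0.16 (R 4.3.3, limma 3.58.1) by the quasi-likelihood F test, with group means, TMM scaling, edgeR's filter on low counts (12822 entries kept) and Benjamini-Hochberg adjustment, called at 0.05. The fit was tested on simulated data. SEs are the log2 fold change divided by the root of F. Most counts lie on the strand opposite to the named gene. In GENCODE 29 an entry was read as the gene on the other strand when that gene held at least 80% of the overlapping exon bases, at least 50 bases, and the entry was above 5.7 CPM, the level that 90% of 9644 protein-coding entries lacking an opposite gene stay under. The level that 99% of them stay under, 48 CPM, is the level for naming by size. In all, 60 entries with over 50% own reads were set aside.

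Groups come from the labels. Genes were named by rule: TMEM97 and other sterol genes, the 5 members of a list with the lowest passing p-values and all of cholesterol synthesis, the 12 largest rises and falls above 48 CPM with groups that do not overlap, the 4 largest each way under own names, and the 4 largest differences between media each way. Some genes that the rule names are not reported here. Genes said to be named after their values were seen stand outside it. The comparison, lists and rules were chosen with earlier results of these data known. Alternatives covered scaling, DESeq2 1.42.0, filters, the samples that share the spread, a replicate block, the library split, leaked reads, overlap, and leaving out each sample.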

Additional observations from a re-analysis of the deposited data

Results flagged for a closer look

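The SG21 effect differed between LPDS and FBS in 10 of the genes named by rule, by edgeR's test of the difference itself, in which the SG21 and parental samples of each medium are separate. Each value below is the log2 fold change of SG21 minus parental in LPDS less that in FBS, with edgeR's adjusted p.

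In 4 genes the SG21 effect was higher in LPDS. The helicase subunit MCM2 gave 0.66 (edgeR adjusted p = 0.0231), and CCDC86 gave 0.73 (edgeR adjusted p = 0.0359), from 0.84 in LPDS and 0.11 in FBS. POLR2E, a subunit shared by the RNA polymerases, gave 0.64 (edgeR adjusted p = 0.0386), from 0.46 and -0.17. RNF157, a ubiquitin ligase, gave 0.52 (edgeR adjusted p = 0.0378), from 0.16 and -0.36.

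In 6 genes it was lower in LPDS. LOX, the enzyme that crosslinks collagen, gave -0.68 (edgeR adjusted p = 0.0154), from -0.34 in LPDS and 0.34 in FBS. WIPI1 gave -1.04 (edgeR adjusted p = 0.00719), and ARHGAP33 gave -1.15 (edgeR adjusted p = 0.00719), from 0.39 and 1.54. EPHA5, an ephrin receptor, gave -0.92 (edgeR adjusted p = 0.0177), from -0.59 and 0.34. NTF4, a neurotrophin, gave -0.98 (edgeR adjusted p = 0.046), from -0.41 and 0.56. DBNDD2, counted under its own name, gave -2.45 (edgeR adjusted p = 0.0418), from -2.95 and -0.50.

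None of the 10 passed when the library split was a term of the model. MCM2, LOX, WIPI1 and ARHGAP33 then gave 0.45, -0.62, -0.83 and -1.07 (edgeR adjusted p = 0.344, 0.153, 0.166 and 0.139). Of the 10, WIPI1 and ARHGAP33 passed with each of the 12 samples left out in turn. LOX passed with each of the 6 LPDS samples left out, but not without SG21 replicate 3 or parental replicate 2 in FBS (-0.65 and -0.58, edgeR adjusted p = 0.0506 and 0.0538). With the split term the SG21 side in LPDS rests on replicate 1, so a call lost there need not mean a smaller difference. The part of the library split in these differences was not tested beyond these values.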

How the results depend on the processing

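The 1450 entries of SG21 minus parental in LPDS became 653 with the library split as a term and 608 with SG21 replicate 1 alone, and 995 to 1367 when 1 sample was left out. The 44 lower entries of the chromosome 10 run became 26, 24 and 39 to 42 in the same order, an alternative added after the data were seen. The 3088 entries in FBS ranged from 1946 to 3174 when 1 sample was left out, lowest without parental replicate 2. The 107 entries that differ between media became 223 by DESeq2, 161 with a replicate block, 6 with the split term, and 30 to 382 when 1 of the 12 samples was left out (the 6 in FBS added after the data were seen). Higher entries were 52.1% of the LPDS calls, but 41.6% without parental replicate 3, and 32.7% of the calls between media, but 50.2% by DESeq2, 16.7% with the split term and 5.66% to 46.9% with 1 sample left out. The fits with the split term and with SG21 replicate 1 alone are nearly the same comparison. Only SG21 in LPDS has samples on both sides of the split, so both fits rest on 1 SG21 sample there. The cause of these changes was not tested.

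The labels do not say whether same-numbered samples are paired. Deviations from the group means of same-numbered SG21 and parental samples correlated at -0.02, 0.07 and -0.01 across genes. With so few samples in a group and the library split within SG21, these values cannot settle the pairing. The replicate block gave 1504 entries in LPDS, 3174 in FBS and 44 in the run, and no named gene lost its call under it. Of 116 named genes that passed, 63 passed in all 17 alternatives, 43 were lost with replicate 1 alone and 34 on leaving out a sample. The sign turned for IDI1 (0.07) and RNF157 (-0.02) with the split term and replicate 1 alone and, among fits that left out 1 sample, for TAF5 (-0.07 to 0.43, negative without SG21 replicate 1) and MYLK (-0.24 to 0.01, positive without parental replicate 3). With 95% overlap 9 passing list members are no longer read: IDI1, NDUFB8, ALDOA, WIPI1, SQSTM1, SLC46A1, MSH6, MYL12A and RPL30. At 2.5 to 4.08 M reads on genes, a difference that did not pass was not detectable at this depth and is not shown to be absent.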

Other observations

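Entries under a gene's own name hold mostly leaked or unannotated reads, so their values describe the entry and not the RNA of the gene. Among such entries for protein-coding genes, 4 large decreases and 4 large increases had groups that do not overlap. The entry TNFAIP2 had 0.371, 1.99 and 2.57 CPM in SG21 against 14.6, 13.5 and 12.3 CPM in parental cells, a log2 fold change of -2.98 (edgeR adjusted p = 5.27e-06). In SG12 minus parental cells it gave -5.21, while SGCTRL minus parental cells gave 1.94. The gene LPIN2 could also be read from the opposite strand (ENSG00000265907), where it gave -0.23 and did not pass (edgeR adjusted p = 0.22). Its own-name entry had 1.48, 0 and 0.734 CPM against 9.34, 6.61 and 6.3 CPM. The entry LINGO3 had 0.742, 0.284 and 1.47 CPM against 4.06, 3.92 and 10.7 CPM. The calls of LPIN2 and LINGO3 were lost with SG21 replicate 1 alone (-2.27 and -3.02, edgeR adjusted p = 0.0763 and 0.0581).

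The increases included 3 entries on the long arm of chromosome 1, at 161.2, 203.5 and 206 Mb. USP21 had 15.9, 9.37 and 14.3 CPM against 2.03, 1.47 and 2.19 CPM, PRELP 7.05, 4.54 and 11.7 CPM against 0, 1.22 and 1.64 CPM, and RAB7B 11.1, 16.7 and 11.7 CPM against 1.62, 0.245 and 1.64 CPM. PCARE, on chromosome 2, had 7.79, 6.53 and 8.07 CPM against 0.406, 0.979 and 1.64 CPM. All 4 passed with SG21 replicate 1 alone.

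Read from the opposite strand, NGFR (NGFR-AS1), the low-affinity neurotrophin receptor, had 41.2, 64.1 and 50.3 CPM against 29.2, 25 and 16.2 CPM and rose by 1.17. With replicate 1 alone its value was 0.83 (edgeR adjusted p = 0.138). CCDC110 (ENSG00000249679) rose by 1.06, and SGCTRL minus parental cells gave 0.91 for it (edgeR adjusted p = 0.00952).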
